A study of Drosophila melanogaster with 9 samples.

Results

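The glutathione S-transferases (Gst) and UDP-glycosyltransferases (Ugt) of Drosophila melanogaster were followed in larval eye discs of 3 genotypes. Members were the genes whose symbol starts with Gst and a class letter (D, E, O, S, T or Z) or with Ugt and a digit, each read by the brightest of its probe sets that the annotation ties to 1 gene. This gave 69 of the 11983 genes measured. Of these, 11 were of the delta class (GstD), 13 of epsilon (GstE), 3 of omega (GstO), 1 of sigma (GstS), 4 of theta (GstT) and 2 of zeta (GstZ), which makes 34 Gst genes, and 35 were Ugt genes.

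The arrays carried total RNA of eye imaginal discs, the larval precursors of the eye, dissected in the third instar. It was hybridised to 9 Affymetrix Drosophila Genome 2.0 arrays, 3 biological replicates in each of 3 groups. The rbf1 mutant group carried the allele rbf1120a with Gal4. Discs that overexpressed PSC, a Polycomb group protein, were labelled w1118 psc, and control discs were w1118 with Gal4. No label names the Gal4 driver, so the cells in which PSC was raised are not known here, and the label of the PSC group does not mention Gal4. Rbf1 is the fly retinoblastoma protein, which holds back E2F transcription factors. Fly stock goes with group, so an effect of the allele or transgene and of the rest of the stock's background cannot be told apart.

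Glutathione S-transferases join glutathione to reactive or oily compounds, which makes them soluble, and some also reduce peroxides or isomerise small molecules. Ugt enzymes sit in the membrane of the endoplasmic reticulum and attach a sugar from a UDP-sugar to small molecules, in insects mostly glucose. Both families are known for the breakdown of insecticides and plant toxins in gut, fat body and Malpighian tubule, and the delta and epsilon classes include genes induced by oxidative stress through Cap-n-collar (cnc), the fly Nrf2. Sequences of the genes were not analysed here.

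The deposited values are RMA log2 intensities, on which a difference of 1 is 2-fold. They allow a gene to be compared between arrays, but not the amount of 1 gene with that of another. Array medians lay between 5.83 and 5.92. Psc was at 12.49 to 12.53 in PSC discs, against 9.80 to 9.86 in control discs, and Rbf was at 9.31 to 9.51 in rbf1 mutant discs, against 9.67 to 9.85 in control discs (difference -0.37, SE 0.096). The eye disc markers, of which 16 of 17 were measured, averaged 10.58 to 10.69 in every array. In bulk discs, fewer cells of a type and less RNA per cell cannot be told apart. A gene was said to have risen or fallen where limma's adjusted p, over the 11983 genes, was under 0.05. All differences below are on the log2 scale, with limma's moderated standard error (SE) and n = 3 arrays a group. Single eye disc markers did move under their steady average. In rbf1 mutant discs toy fell (-0.24, adjusted p = 0.0134) and tsh rose (0.29, adjusted p = 0.0101), and in PSC discs 0 of the 16 passed. Between rbf1 mutant and PSC discs, tsh was higher (0.41), and dac (-0.49), ato (-0.52) and sev (-0.31) were lower. An exact permutation test of 3 arrays against 3 cannot go below p = 0.1, the value it gave wherever groups did not overlap.

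In rbf1 mutant discs 12 members differed from control discs, 3 upward and 9 downward. GstE5, GstE12 and Ugt305A1 rose. Those that fell were GstD2, GstE11, GstO3, GstT3, GstT4, GstZ1, Ugt302C1, Ugt317A1 and Ugt50B3. The 12 members are 17.4% of the 69, while 10.2% of all genes passed in this comparison. Members that fell made up 13.0%, beside 3.92% of all genes, and members that rose 4.35%, beside 6.31% of all genes. The median difference was -0.07 over the members and -0.0042 over all genes, and 43 of 69 members had a negative difference. Groups did not overlap for 25 of 69 members, beside 28.9% of all genes.

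In PSC discs against control discs, 2 members rose and 11 fell. GstD9 and Ugt36A1 rose, while GstE1, GstE5, GstE6, GstT3, GstT4, GstZ1, Ugt302C1, Ugt302K1, Ugt317A1, Ugt35A1 and Ugt50B3 fell. The 13 members are 18.8% of the 69, beside 3.8% of all genes. Members that fell made up 15.9%, beside 2.38% of all genes, and members that rose 2.9%, beside 1.42%. The median difference was -0.06 over the members and 0.0091 over all genes, and 46 of 69 members had a negative difference. Groups did not overlap for 34 of 69 members, beside 21.7% of all genes. Both comparisons use the same 3 control arrays, so their values are given side by side below and count as no independent repeat of each other.

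**Figure D1:**
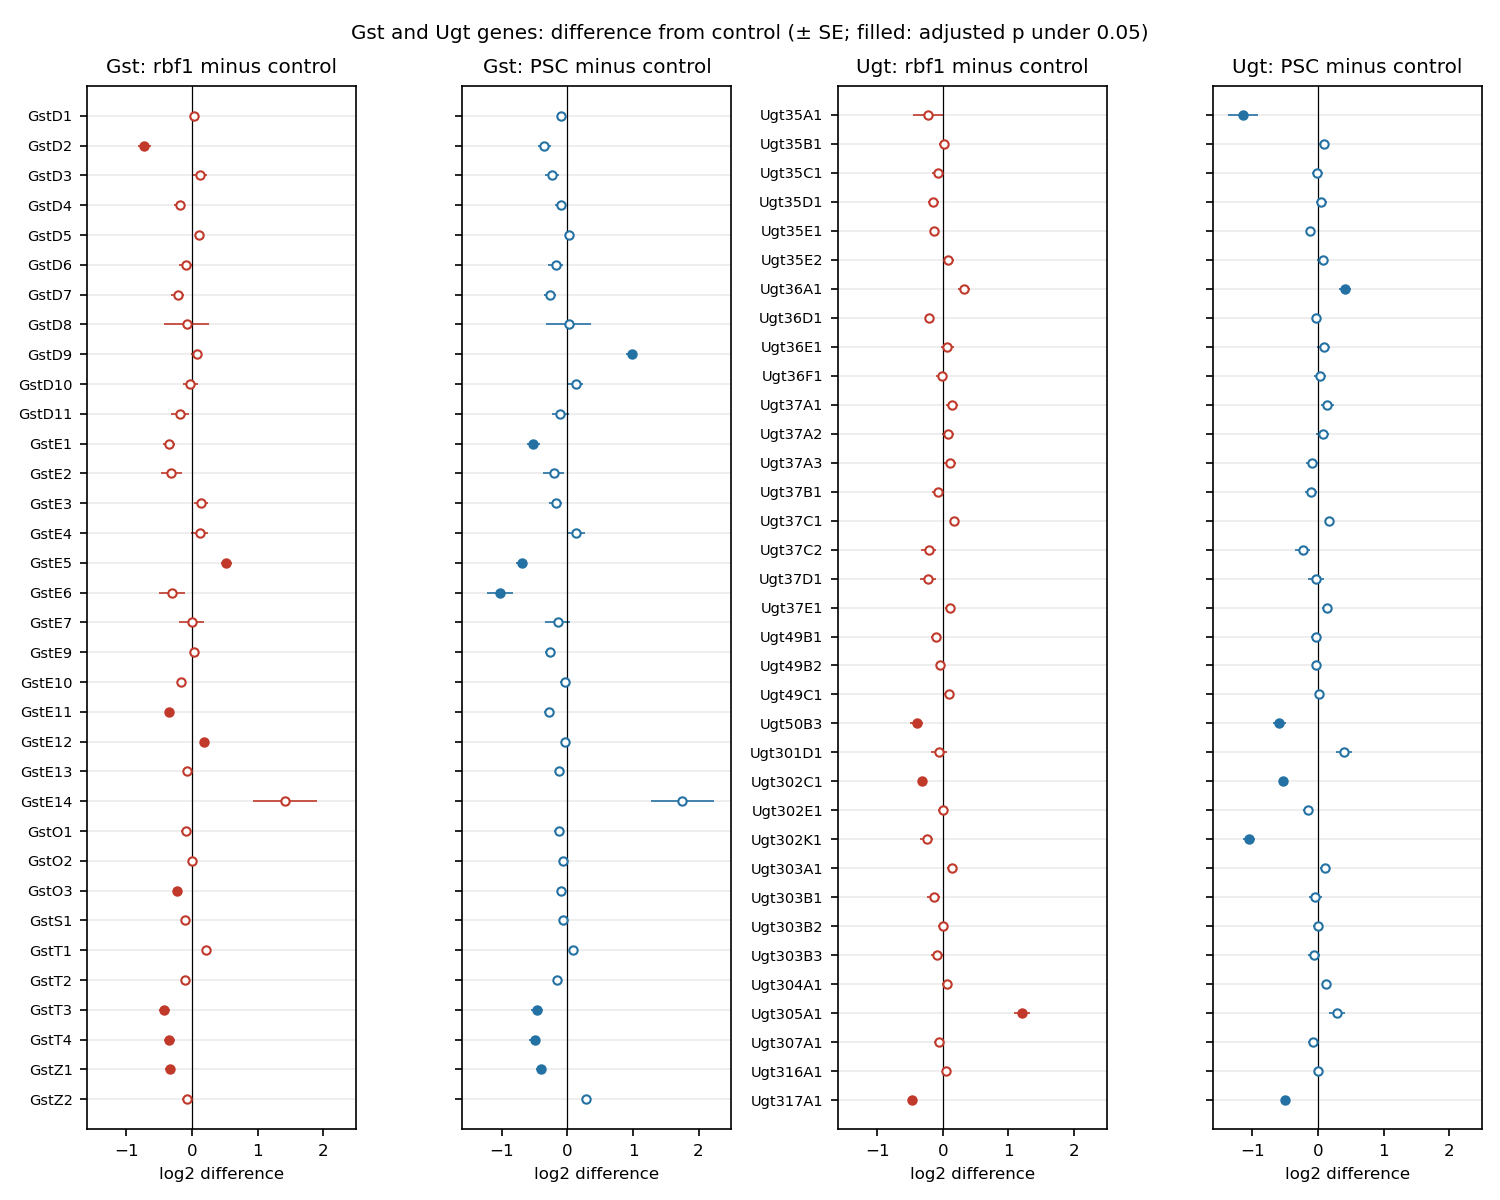
Log2 difference from control discs of each Gst gene (left pair of panels) and each Ugt gene (right pair), in rbf1 mutant discs (red) and PSC discs (blue). Points are limma differences, bars are 1 SE (n = 3 arrays a group), and filled points have an adjusted p under 0.05. Most points lie near 0, and of the filled points 9 of 12 for rbf1 and 11 of 13 for PSC lie below it.

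Many of the genes were dim. The mean over the 9 arrays was under 5 for 29 members, 24 of them Ugt and 5 GstD, where the most common mean of all genes was 4.05. RMA values near that level have little room to fall, and 1 of these 29, Ugt305A1, passed in any comparison. With genes split at the median level of all genes (8.15), 25 members lay above it. Of these, 8 passed in rbf1 mutant discs (32.0%, beside 13.2% of all genes above the median) and 9 in PSC discs (36.0%, beside 4.32%). Of the 44 members below, 4 passed in each comparison (9.09%), beside 7.26% of all genes below the median for rbf1 and 3.27% for PSC. The members varied little as a rule: 43 of 69 spanned less than 0.5 over all 9 arrays, and 8 spanned more than 1.

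In the delta class, 1 of 11 genes passed in each comparison with control discs (9.09%, beside 10.2% of all genes for rbf1 and 3.8% for PSC). GstD9 rose in PSC discs and GstD2 fell in rbf1 mutant discs, and the median difference of the 11 genes was -0.08 in rbf1 mutant discs and -0.10 in PSC discs. GstD9 read 9.55, 9.48 and 9.48 in rbf1 mutant discs, 10.47, 10.54 and 10.25 in PSC discs, and 9.49, 9.51 and 9.30 in control discs. Every PSC array stood above every other array, while the rbf1 mutant and control arrays overlapped. The PSC difference was 0.98 (SE 0.086, adjusted p = 0.000741), which is 1.98-fold, and the rbf1 difference was 0.07 (SE 0.086, adjusted p = 0.697). This call stood without any 1 array.

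GstD2 read 7.28, 7.40 and 7.63 in rbf1 mutant discs, 7.69, 7.78 and 7.97 in PSC discs, and 8.18, 8.13 and 8.19 in control discs. The 3 groups followed each other without overlap, with rbf1 mutant discs lowest. Its difference was -0.73 in rbf1 mutant discs (SE 0.099, adjusted p = 0.0024), 1.66-fold lower, and the call stood without any 1 array. In PSC discs the difference of -0.35 did not pass (SE 0.099, adjusted p = 0.109).

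GstD1, a DDT-metabolising enzyme whose promoter is a common reporter of cnc activity, passed in neither comparison. It read 14.03, 14.11 and 14.03 in rbf1 mutant discs, 13.96, 13.90 and 13.94 in PSC discs, and 14.01, 14.00 and 14.07 in control discs, differences of 0.03 (SE 0.045, adjusted p = 0.772) and -0.09 (SE 0.045, adjusted p = 0.356). GstD3 differed by 0.12 in rbf1 mutant discs and by -0.24 in PSC discs, and neither passed (adjusted p = 0.548 and 0.319). GstD8 had the second widest spread within a group of all members (SD 0.53 in rbf1 mutant discs, whose arrays ran between 6.50 and 7.47) and gave differences near 0. The 9 GstD genes that passed in no comparison lay between -0.22 and 0.12 for rbf1 and between -0.26 and 0.12 for PSC, both lower ends being GstD7. The 11 GstD genes lie side by side in the RefSeq gene table, with GstD9 and GstD2 on either side of GstD1. The probe annotation gives each GstD probe set 1 gene, but probe sequences were not checked for matches to neighbouring copies. The same holds for the probe sets of the other classes and of the Ugt genes.

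**Figure D2:**
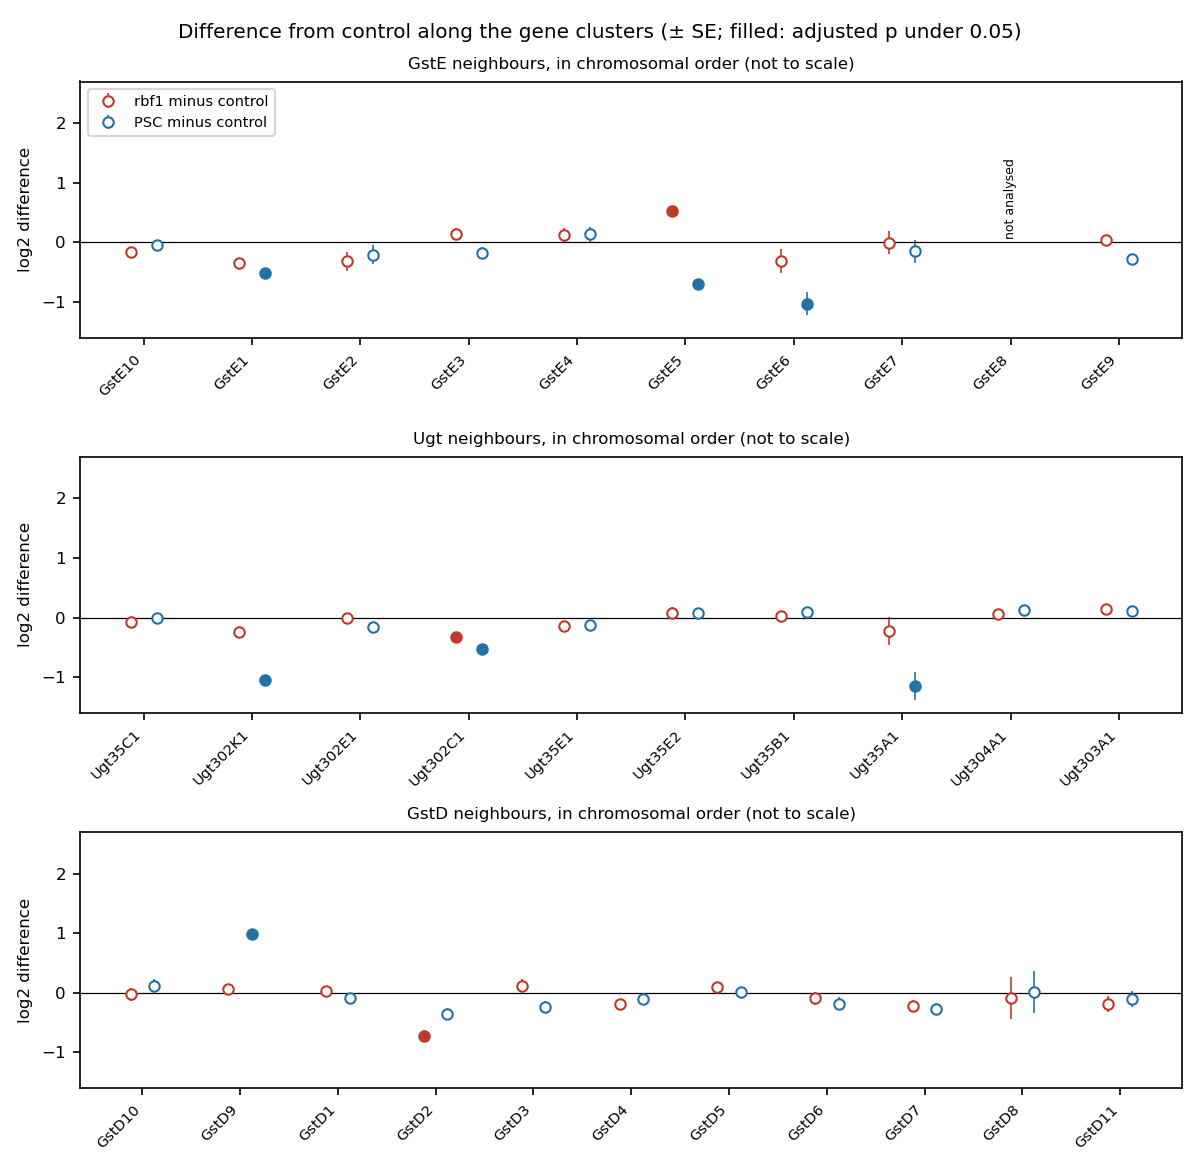
Log2 difference from control discs along the neighbouring GstE, Ugt and GstD genes, in the order of the RefSeq gene table with even spacing, for rbf1 mutant discs (red) and PSC discs (blue). Bars are 1 SE (n = 3 arrays a group) and filled points have an adjusted p under 0.05. Genes that passed stand next to genes near 0 in each of the 3 neighbourhoods.

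The epsilon class held 5 of the genes that passed against control discs, and they did not go one way. In each comparison 3 of 13 passed (23.1%), beside 10.2% of all genes for rbf1 and 3.8% for PSC. GstE5 rose in rbf1 mutant discs and fell in PSC discs. GstE12 rose and GstE11 fell in rbf1 mutant discs, and GstE1 and GstE6 fell in PSC discs. The median difference of the 13 genes was -0.01 in rbf1 mutant discs and -0.18 in PSC discs, and 11 of 13 differences were negative in PSC discs.

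GstE5 read 8.37, 8.48 and 8.67 in rbf1 mutant discs, 7.37, 7.28 and 7.21 in PSC discs, and 8.03, 7.98 and 7.95 in control discs. Control arrays fell between the other groups with no overlap on either side. The rbf1 difference was 0.52 (SE 0.080, adjusted p = 0.00441), 1.44-fold higher, and the PSC difference was -0.70 (SE 0.080, adjusted p = 0.00261), 1.62-fold lower. Set directly against each other, rbf1 mutant discs were 1.22 above PSC discs (SE 0.080, adjusted p = 6.62e-05). Each of these calls stood without any 1 array. GstE5 was the only member that passed against control discs in both comparisons with opposite signs.

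GstE6, its neighbour, read 7.17, 7.60 and 7.74 in rbf1 mutant discs, 6.76, 6.94 and 6.66 in PSC discs, and 7.73, 8.21 and 7.50 in control discs. PSC arrays lay below all the others, and rbf1 mutant and control arrays overlapped. The PSC difference was -1.03 (SE 0.20, adjusted p = 0.028), 2.04-fold lower, but the call was lost without any 1 of the 3 PSC arrays, control 1, control 2 or rbf1 2 (adjusted p up to 0.0895). The rbf1 difference was -0.31 (adjusted p = 0.405).

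GstE1 read 10.81, 11.04 and 10.94 in rbf1 mutant discs, 10.91, 10.81 and 10.58 in PSC discs, and 11.21, 11.36 and 11.28 in control discs. Control arrays were the highest, and the other groups overlapped. It fell in PSC discs (difference -0.52, SE 0.095, adjusted p = 0.0224), a call lost without any 1 control array or without PSC 2 (adjusted p up to 0.0754). In rbf1 mutant discs the difference was -0.35 (SE 0.095, adjusted p = 0.0538) and did not pass. GstE10, whose span overlaps that of GstE1 in the gene table, differed by -0.17 in rbf1 mutant discs and -0.04 in PSC discs and passed in neither (adjusted p = 0.18 and 0.828).

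Away from this neighbourhood, GstE11 read 12.33, 12.41 and 12.28 in rbf1 mutant discs, 12.30, 12.47 and 12.44 in PSC discs, and 12.70, 12.60 and 12.76 in control discs. Control arrays were again the highest. GstE11 fell in rbf1 mutant discs (difference -0.35, SE 0.067, adjusted p = 0.013), a call lost without rbf1 3 (adjusted p = 0.0506), and its PSC difference of -0.28 did not pass (adjusted p = 0.0595). GstE12 read 12.68, 12.68 and 12.63 in rbf1 mutant discs, 12.40, 12.46 and 12.44 in PSC discs, and 12.47, 12.50 and 12.46 in control discs, with the rbf1 mutant arrays on top. It rose by 0.19 in rbf1 mutant discs (SE 0.041, adjusted p = 0.0229), 1.14-fold, a call that needed control 1, control 3, rbf1 1 and rbf1 2 each (without 1 of them the adjusted p reached 0.0822), and which was lost when arrays were centred on their medians. GstE13 differed by -0.13 in PSC discs and did not pass (adjusted p = 0.183).

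GstE14 had the largest differences of any member and the widest spread. This enzyme, Noppera-bo, is known for its part in ecdysteroid synthesis in the prothoracic gland. It read 8.70, 8.04 and 9.20 in rbf1 mutant discs, 8.23, 9.86 and 8.85 in PSC discs, and 7.13, 7.93 and 6.63 in control discs. Control arrays were the lowest, and the rbf1 mutant and PSC arrays overlapped. The difference was 1.42 in rbf1 mutant discs (SE 0.48, adjusted p = 0.115) and 1.75 in PSC discs (SE 0.48, adjusted p = 0.104), and neither passed. Its SD within PSC discs, 0.82, was the largest within-group SD of the 69 members, whose median was 0.14.

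Genes of ecdysteroid synthesis, added after values were seen, moved with GstE14. Their mean over nvd, spok, sro, phtm, dib and sad was 9.98, 9.58 and 10.50 in rbf1 mutant discs, 9.49, 10.84 and 10.21 in PSC discs, and 8.57, 9.19 and 8.13 in control discs. The array highest in GstE14 within each group was the highest in that mean as well. These enzymes are known from the prothoracic gland, and each of the 6 was measured. Of the 6, dib passed in both comparisons, with differences of 1.18 in rbf1 mutant discs (adjusted p = 0.0435) and 1.65 in PSC discs (adjusted p = 0.0218). Its rbf1 call was lost without any 1 control or rbf1 array or PSC 3 (adjusted p up to 0.136), and its PSC call without control 1, control 3 or PSC 3 (up to 0.0765).

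A fit with that mean as a covariate, chosen after the values were seen, was run over all genes. Ugt305A1 rose and GstD2 fell in rbf1 mutant discs and no other member passed there, beside 1.9% of all genes that rose and 0.843% that fell, and 17 of 69 members (24.6%) had an unadjusted p under 0.05, beside 15.6% of all genes. In PSC discs 0 rose and 0 fell in limma, beside 0.134% and 0.25% of all genes, and 19 of 69 members (27.5%) had an unadjusted p under 0.05, beside 10.1% of all genes. The mean was higher in every rbf1 mutant and PSC array than in any control array. The ecdysteroid gene level and genotype therefore cannot be told apart in these comparisons. Whether that level came from gland tissue, and what the gland contributed to GstE14 and to the other members, was not tested.

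**Figure D3:**
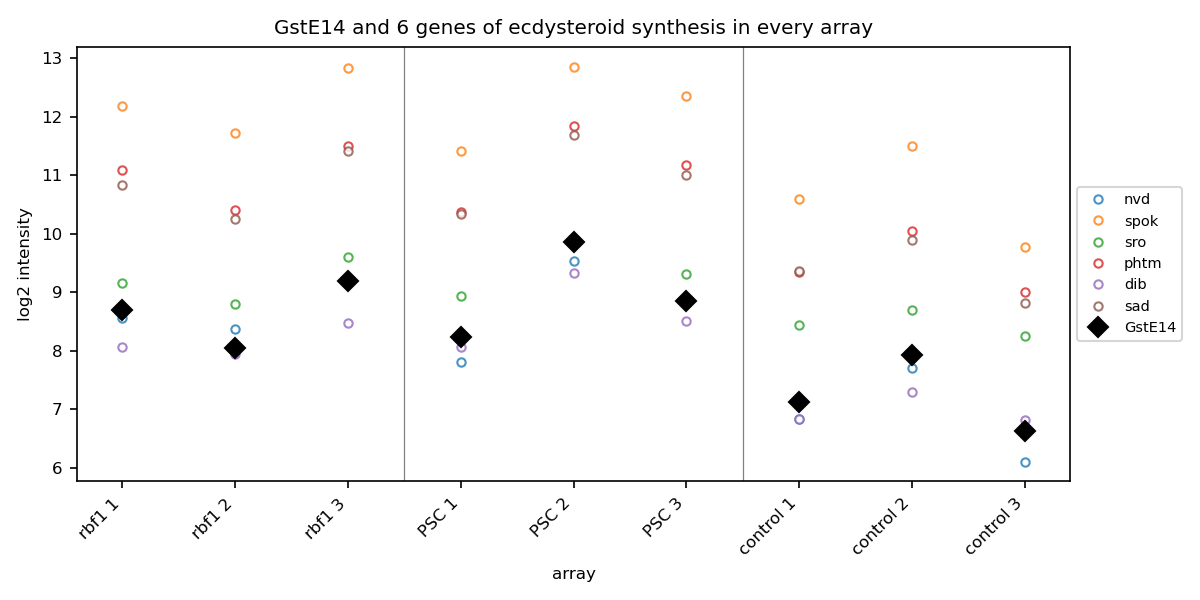
Log2 intensity of GstE14 (black diamonds) and of 6 ecdysteroid synthesis genes (open circles) in each of the 9 arrays, rbf1 mutant and PSC arrays left of control. GstE14 ran between 8.04 and 9.86 in the rbf1 mutant and PSC arrays and between 6.63 and 7.93 in the control arrays, and within each group its arrays take the same order as the mean of the other genes, whose absolute heights are not comparable between genes.

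Among the smaller Gst classes, GstT3, GstT4 and GstZ1 fell in rbf1 mutant discs and in PSC discs, which share their control arrays. GstT1, GstT2 and GstZ2 passed in neither of these comparisons. Zeta enzymes are known as maleylacetoacetate isomerases of tyrosine breakdown. GstT3 read 10.57, 10.51 and 10.31 in rbf1 mutant discs, 10.48, 10.29 and 10.46 in PSC discs, and 10.88, 10.76 and 11.00 in control discs. For GstT4 the values were 10.43, 10.29 and 10.38 in rbf1 mutant discs, 10.20, 10.28 and 10.17 in PSC discs, and 10.59, 10.90 and 10.65 in control discs. GstZ1 stood at 9.71, 9.74 and 9.69 in rbf1 mutant discs, 9.69, 9.65 and 9.65 in PSC discs, and 9.96, 9.97 and 10.25 in control discs. For each of the 3 genes the control arrays were above all 6 others.

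The GstT3 difference was -0.42 in rbf1 mutant discs (SE 0.091, adjusted p = 0.0221) and -0.47 in PSC discs (SE 0.091, adjusted p = 0.0275). For GstT4 it was -0.35 (SE 0.083, adjusted p = 0.033) and -0.50 (SE 0.083, adjusted p = 0.0149), and for GstZ1 -0.34 (SE 0.075, adjusted p = 0.0229) and -0.40 (SE 0.075, adjusted p = 0.0252), rbf1 first. None of these 6 calls stood without every single array. The rbf1 call of GstT3 needed control 1, control 3, rbf1 2 and rbf1 3 each (adjusted p up to 0.0651 without 1 of them), that of GstT4 without control 2, control 3, PSC 1 or any 1 rbf1 array (up to 0.113), and that of GstZ1 without any 1 rbf1 array (up to 0.0746). The PSC call of GstT3 was lost without control 1, control 3, rbf1 2 or any 1 PSC array (adjusted p up to 0.0988), that of GstT4 without PSC 1 or PSC 3 (up to 0.0561), and that of GstZ1 without any 1 PSC array (up to 0.0918).

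GstZ2, next to GstZ1 in the gene table, did not follow it. It read 8.50, 8.50 and 8.57 in rbf1 mutant discs, 8.94, 8.82 and 8.94 in PSC discs, and 8.74, 8.48 and 8.60 in control discs, with the PSC arrays on top. Against control discs it differed by -0.08 in rbf1 mutant discs (adjusted p = 0.549) and by 0.29 in PSC discs (adjusted p = 0.0708). GstT1 read 11.98, 11.96 and 11.86 in rbf1 mutant discs, 11.79, 11.77 and 11.81 in PSC discs, and 11.73, 11.62 and 11.80 in control discs. Its rbf1 difference of 0.22 missed the threshold (SE 0.058, adjusted p = 0.0502). GstT2 differed by -0.11 in rbf1 mutant discs and by -0.17 in PSC discs (adjusted p = 0.339 and 0.209).

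Of the omega genes, GstO3 fell in rbf1 mutant discs. Its values were 12.78, 12.79 and 12.66 in rbf1 mutant discs, 12.90, 12.85 and 12.87 in PSC discs, and 12.98, 12.91 and 13.03 in control discs, an order without overlap. The rbf1 difference was -0.23 (SE 0.053, adjusted p = 0.0306), lost without control 1, control 3, PSC 1 or any 1 rbf1 array (adjusted p up to 0.0896), and the PSC difference was -0.10 (adjusted p = 0.403). GstO1 differed by -0.09 and -0.13, rbf1 first, and passed in neither. GstO2 has 2 probe sets that read alike, at -0.00 and 0.04 for rbf1 and -0.07 and -0.05 for PSC. GstS1, the sigma enzyme abundant in flight muscle and known to conjugate products of lipid peroxidation, differed by -0.11 in rbf1 mutant discs (adjusted p = 0.171) and -0.06 in PSC discs (adjusted p = 0.541).

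Among the 35 Ugt genes, 7 passed against control discs. In rbf1 mutant discs 4 passed (11.4%, near the 10.2% of all genes), and in PSC discs 6 passed (17.1%, beside 3.8% of all genes). Ugt302C1, Ugt317A1 and Ugt50B3 fell in both altered genotypes. Ugt302K1 and Ugt35A1 fell in PSC discs and Ugt36A1 rose there, while Ugt305A1 rose in rbf1 mutant discs. The median difference of the class was -0.04 for rbf1 and -0.01 for PSC, and 24 of the 35 genes were dim, with a mean under 5.

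Ugt302K1, formerly Ugt86Di, read 10.33, 10.46 and 10.20 in rbf1 mutant discs, 9.52, 9.45 and 9.59 in PSC discs, and 10.66, 10.38 and 10.68 in control discs. PSC arrays lay far below the rest, and rbf1 mutant arrays overlapped control arrays. The PSC difference was -1.05 (SE 0.096, adjusted p = 0.000933), 2.08-fold lower, and stood without any 1 array. The rbf1 difference of -0.25 did not pass (adjusted p = 0.165). Ugt35A1, in the same neighbourhood of 10 Ugt genes, read 7.52, 7.82 and 8.14 in rbf1 mutant discs, 7.04, 7.01 and 6.66 in PSC discs, and 7.79, 8.54 and 7.83 in control discs. Its PSC arrays were also the lowest, by -1.15 against control discs (SE 0.23, adjusted p = 0.0314), 2.22-fold. This call was lost without control 1, control 2, rbf1 2 or any 1 PSC array (adjusted p up to 0.0981), and its rbf1 difference was -0.23 (adjusted p = 0.619).

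Ugt302C1, formerly Ugt86Da, read 10.79, 10.68 and 10.68 in rbf1 mutant discs, 10.52, 10.43 and 10.58 in PSC discs, and 11.06, 11.04 and 11.01 in control discs. The groups did not overlap, and PSC discs were lowest. It fell by 0.32 in rbf1 mutant discs (SE 0.055, adjusted p = 0.00728) and by 0.53 in PSC discs (SE 0.055, adjusted p = 0.0018), and both calls stood without any 1 array. Of the 10 genes of this neighbourhood, the other 7 passed in no comparison. Among them is Ugt35C1, formerly Ugt86Dd, which has been linked to nicotine resistance.

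Ugt317A1, formerly Ugt58Fa, read 9.42, 9.33 and 9.36 in rbf1 mutant discs, 9.32, 9.25 and 9.44 in PSC discs, and 9.78, 9.82 and 9.92 in control discs. Control arrays were the highest, and the other groups overlapped. It fell by 0.47 in rbf1 mutant discs (SE 0.062, adjusted p = 0.00209) and by 0.50 in PSC discs (SE 0.062, adjusted p = 0.00389), calls that stood without any 1 array. Ugt50B3 read 5.51, 5.45 and 5.66 in rbf1 mutant discs, 5.22, 5.25 and 5.56 in PSC discs, and 5.97, 5.99 and 5.85 in control discs. Its difference was -0.40 in rbf1 mutant discs (SE 0.10, adjusted p = 0.0411) and -0.59 in PSC discs (SE 0.10, adjusted p = 0.0155). The rbf1 call was lost without any 1 control array, PSC 2, rbf1 1 or rbf1 2 (adjusted p up to 0.134), and the PSC call without control 1, control 2, PSC 1 or PSC 2 (up to 0.0628).

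Ugt305A1 rose in rbf1 mutant discs. It read 5.79, 5.29 and 5.42 in rbf1 mutant discs, 4.49, 4.67 and 4.57 in PSC discs, and 4.24, 4.43 and 4.21 in control discs. Control and PSC arrays were near the most common mean of all genes, and each rbf1 mutant array was above all 6 of them. The rbf1 difference was 1.21 (SE 0.13, adjusted p = 0.000588), 2.31-fold, and stood without any 1 array. With control discs so dim, the fold rests on values where RMA compresses differences. The PSC difference was 0.29 (SE 0.13, adjusted p = 0.302).

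Ugt36A1, also named Dot, read 8.57, 8.86 and 8.72 in rbf1 mutant discs, 8.94, 8.79 and 8.69 in PSC discs, and 8.39, 8.45 and 8.35 in control discs. Control arrays were the lowest. It rose by 0.41 in PSC discs (SE 0.088, adjusted p = 0.0399), 1.33-fold, a call lost without any 1 control array, PSC 1, PSC 2 or rbf1 3 (adjusted p up to 0.119). The rbf1 difference of 0.32 missed the threshold (adjusted p = 0.0536). Ugt36D1 differed by -0.21 in rbf1 mutant discs (adjusted p = 0.0747) and -0.03 in PSC discs, and Ugt37C1, a dim gene, by 0.17 and 0.16, rbf1 first (adjusted p = 0.112 and 0.202). Ugt301D1 read 10.32, 10.42 and 10.54 in rbf1 mutant discs, 10.67, 11.03 and 10.96 in PSC discs, and 10.63, 10.58 and 10.27 in control discs. Its PSC difference of 0.40 did not pass (SE 0.12, adjusted p = 0.145). Between rbf1 mutant and PSC discs it differed by -0.46 without overlap and missed the threshold (SE 0.12, adjusted p = 0.052). The 28 Ugt genes that passed in no comparison lay between -0.23 and 0.17 for rbf1 and between -0.23 and 0.40 for PSC.

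**Figure D4:**
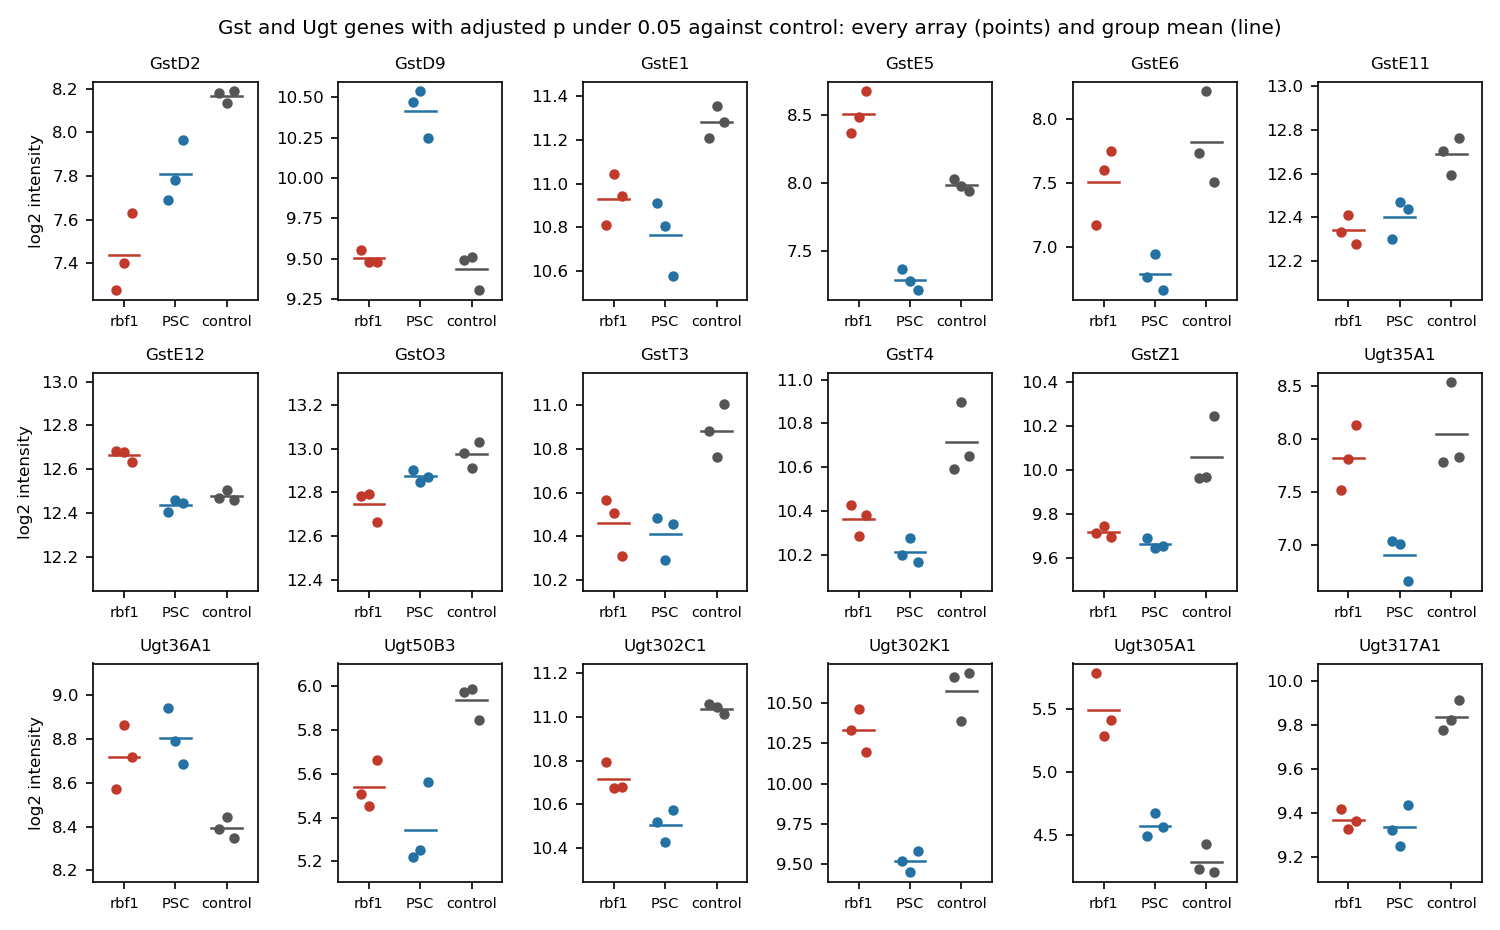
Log2 intensity in every array (points, 3 a group) and group mean (lines) of the 18 Gst and Ugt genes with an adjusted p under 0.05 in rbf1 mutant or PSC discs against control discs, each panel on its own axis and with rbf1 and PSC left of control. GstD9 stands apart in PSC discs (10.25 to 10.54), Ugt305A1 in rbf1 mutant discs (5.29 to 5.79), and GstE5 takes separate levels in the 3 groups.

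The altered genotypes were then compared with each other, which tests whether their effects differ. In rbf1 mutant discs against PSC discs, 7 members were higher (GstE5, GstE9, GstE12, Ugt302C1, Ugt302K1, Ugt305A1 and Ugt35A1) and 3 were lower (GstD2, GstD9 and GstZ2). The 10 members are 14.5% of the 69, beside 10.6% of all genes (6.91% higher and 3.66% lower). Their share was closer to that background than in the comparisons with control discs. Groups did not overlap for 23 of 69 members, beside 30.5% of all genes. The members' median was 0.01, and that of all genes -0.01. When arrays were centred on their medians, the split of the members turned to 4 higher and 5 lower, and 43.7% of all calls were higher, against 65.4% without centring. For rbf1 mutant against control discs, centring left 2 members higher and 11 lower, with 48.1% of all calls higher, against 61.7% without it.

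GstE5 had the largest of these differences, given above. GstD9 was 0.91 lower in rbf1 mutant than in PSC discs, a difference of -0.91 (SE 0.086, adjusted p = 0.000352). Ugt302K1 was higher by 0.81 (SE 0.096, adjusted p = 0.00125) and Ugt305A1 by 0.92 (SE 0.13, adjusted p = 0.00247), and all 4 calls stood without any 1 array. GstE12 was higher by 0.23 (SE 0.041, adjusted p = 0.00893), which stood without any 1 array but not with centred arrays.

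Each of the other 5 calls was lost on leaving out at least 1 array. Ugt35A1 was higher by 0.92 (SE 0.23, adjusted p = 0.0386), lost without any 1 PSC array, rbf1 2 or rbf1 3 (adjusted p up to 0.119). Ugt302C1 was higher by 0.21 (adjusted p = 0.0456), lost without any 1 array other than PSC 3 (up to 0.143) and with centred or quantile-normalized arrays. GstD2 was lower, with a difference of -0.37 (adjusted p = 0.0487), lost without any 1 array other than rbf1 3 (up to 0.144). GstZ2 differed by -0.37 (SE 0.071, adjusted p = 0.0121), lost without PSC 1 (adjusted p = 0.0512). GstE9 read 5.78, 5.70 and 5.87 in rbf1 mutant discs, 5.50, 5.46 and 5.46 in PSC discs, and 5.74, 5.85 and 5.64 in control discs. Its difference between rbf1 mutant and PSC discs was 0.31 (SE 0.065, adjusted p = 0.0199), lost without any 1 PSC array, rbf1 1 or rbf1 3 (up to 0.0676) and with centred arrays. Its second probe set gave 0.57 but was dim, with a mean of 3.82 where the most common mean of all genes was 4.05. For rbf1 mutant against control discs that set gave 0.38 and the first 0.04. The second set was not tested.

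Genes around these families were read from lists of regulators, glutathione enzymes and partner reactions. Of 56 genes written, 43 were measured. Against control discs, 1 of them (Prx3) was higher and 3 were lower in rbf1 mutant discs, and 3 were lower in PSC discs. The 4 are 9.3% of the 43, near the 10.2% of all genes, and the 3 are 6.98%, beside 3.8% of all genes. Neither cnc nor its inhibitor Keap1 passed. The cnc difference was 0.15 in rbf1 mutant discs (SE 0.047, adjusted p = 0.0925) and 0.05 in PSC discs (adjusted p = 0.683), and that of Keap1 was 0.10 (adjusted p = 0.436) and 0.09 (adjusted p = 0.577). Gclc, the catalytic subunit of the first and limiting step of glutathione synthesis, differed by 0.20 in rbf1 mutant discs (adjusted p = 0.325) and 0.38 in PSC discs (adjusted p = 0.124).

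Mgstl, a microsomal glutathione S-transferase outside the soluble classes, fell in both altered genotypes. It read 11.84, 11.85 and 11.76 in rbf1 mutant discs, 11.74, 11.82 and 11.77 in PSC discs, and 12.04, 12.04 and 12.08 in control discs, all control arrays on top. The differences were -0.24 (SE 0.045, adjusted p = 0.0122) and -0.28 (SE 0.045, adjusted p = 0.0134), rbf1 first, and the PSC call was lost without PSC 1 (adjusted p = 0.059). St2, a sulfotransferase of the conjugation step that runs beside the Ugt enzymes, fell by 0.60 in rbf1 mutant discs (adjusted p = 0.0198) and by 0.57 in PSC discs (adjusted p = 0.0489). Prx3, the mitochondrial peroxiredoxin, rose by 0.30 in rbf1 mutant discs (adjusted p = 0.0048), and Clic, a relative of the Gst fold, fell by 0.19 there (adjusted p = 0.0411). Jheh2, an epoxide hydrolase, fell by 0.20 in PSC discs (adjusted p = 0.0492). Of these, Prx3 stood without any 1 array. The rbf1 call of St2 was lost without control 1, control 3, rbf1 2 or rbf1 3 (up to 0.0769), and its PSC call without any 1 array but control 2 (up to 0.147). For Clic the call needed every array except control 1 and PSC 3 (adjusted p up to 0.124), and for Jheh2 it needed all 9 (up to 0.165).

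Between rbf1 mutant and PSC discs, 4 of the 43 were higher and 1 was lower, together 11.6%, near the 10.6% of all genes. The higher ones were MTF-1, the metal-responsive transcription factor (0.30, adjusted p = 0.0459), Ggt-1, a gamma-glutamyl transpeptidase (0.28, adjusted p = 0.0374), sgl, the UDP-glucose dehydrogenase that makes UDP-glucuronate (0.25, adjusted p = 0.0287), and Jheh2 (0.18, adjusted p = 0.0336). Clic was lower, with a difference of -0.30 (adjusted p = 0.00498), which stood without any 1 array. The 4 others did not stand: sgl was lost without any 1 PSC or rbf1 array (adjusted p up to 0.0954), Jheh2 without any of those or control 2 (up to 0.11), Ggt-1 without any 1 PSC array, control 1, control 2, rbf1 1 or rbf1 2 (up to 0.114), and MTF-1 without any 1 control array, PSC 1, PSC 3, rbf1 1 or rbf1 2 (up to 0.151).

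Some markers of other cell types and tissues, which may lie in the disc or be carried along with it, moved with genotype. Others of the same lists did not. Haemocyte markers, all 10 measured, averaged 9.21 to 9.56 in rbf1 mutant discs, 9.78 to 10.07 in PSC discs and at least 9.60 in each control array, and 3 of 10 (NimC2, PPO1 and PPO2) fell in rbf1 mutant discs, of which NimC2 stood without any 1 array. PPO1 was lost without control 1, control 2, rbf1 1 or rbf1 2, and PPO2 without any 1 array but rbf1 3 (adjusted p up to 0.0814 and 0.129). Hml (0.03), He (0.02) and crq (0.08) had positive rbf1 differences that did not pass. The negative rbf1 differences of NimC1 (-0.56), eater (-0.48), srp (-0.25) and Pxn (-0.03) did not pass either. Trachea and cuticle markers, 9 of 11 measured, averaged 8.82 to 8.91 in rbf1 mutant discs, 8.84 to 9.02 in PSC discs and 9.06 to 9.24 in control discs, and 4 of 9 fell in rbf1 mutant and 1 of 9 in PSC discs. These were kkv (-0.27), knk (-0.25), dyl (-0.82) and Lcp65Ae (-0.28) for rbf1, and dyl (-0.96) for PSC. The calls of kkv and dyl stood without any 1 array. That of knk was lost without control 1, control 3 or any 1 rbf1 array (adjusted p up to 0.0921). Lcp65Ae was lost without control 2 or any 1 rbf1 array (up to 0.0877). Glial markers, 8 of 9 measured, averaged 8.54 to 8.63 in rbf1 mutant discs, 8.54 to 8.65 in PSC discs and 8.46 to 8.55 in control discs, with a median difference of 0.08 in rbf1 mutant discs. Of the 8, repo, nrv2 and htl rose in rbf1 mutant discs and repo rose in PSC discs, while gcm (-0.34), alrm (-0.34), loco (-0.09) and moody (-0.08) had negative rbf1 differences that did not pass. The rbf1 calls stood without any 1 array, while the PSC call of repo was lost without any 1 control or PSC array or rbf1 3 (adjusted p up to 0.122). Gut and Malpighian tubule markers, 11 of 16 measured, were each below the median level of all genes, and Mal-A1, a gut maltase, fell in both altered genotypes (difference -1.93, adjusted p = 0.0101, in rbf1 mutant discs, and -2.15, adjusted p = 0.0142, in PSC discs, the PSC call being lost without control 1 at an adjusted p of 0.053). No other marker of the 11 passed against control discs. The median difference of the 11 was -0.05 in rbf1 mutant discs and 0.04 in PSC discs. Fat body markers, 10 of 13 measured, averaged 7.44 to 8.15 in rbf1 mutant discs, 8.13 to 8.71 in PSC discs and 7.83 to 8.31 in control discs. In rbf1 mutant discs Obp99b (-1.68) fell and Yp2 (0.34) rose, calls lost without control 1, control 3, rbf1 1 or rbf1 2 for Obp99b and without any 1 array but control 1 and rbf1 2 for Yp2 (adjusted p up to 0.0884 and 0.12). Muscle markers, 8 of 12 measured, averaged 10.77 to 10.88 in rbf1 mutant discs, 10.64 to 10.88 in PSC discs and 10.68 to 11.05 in control discs. Of them Mlp60A (-0.68) and TpnC73F (-0.32) fell and twi (0.52) rose in rbf1 mutant discs, and none of these calls stood without every single array: Mlp60A needed control 1 and rbf1 2, TpnC73F each rbf1 array, control 1 and control 2, and twi each rbf1 array, control 2 and control 3 (adjusted p up to 0.0572, 0.0755 and 0.106). Brain and neuroblast markers, 8 of 10 measured, averaged 7.36 to 7.59 in rbf1 mutant discs, 7.54 to 7.73 in PSC discs and 7.43 to 7.68 in control discs. Rdl fell in rbf1 mutant discs (-0.88) and in PSC discs (-0.55), calls that stood without any 1 array. In PSC discs ase fell (-0.95) and mira rose (0.70), calls lost without any 1 PSC array, control 1 or control 3 for ase and without any 1 array but control 3 for mira (adjusted p up to 0.0881 and 0.152). Between rbf1 mutant and PSC discs, the fat body markers Fbp2 (-2.21) and Obp99b (-1.95) were lower. So were PPO1 (-1.97), PPO2 (-1.94), NimC1 (-0.84), kkv (-0.29), TpnC73F (-0.28), nab (-0.68), dpn (-0.35) and Rdl (-0.32). Higher were repo (0.29), nrv2 (0.43), htl (0.22), twi (0.65) and ase (1.18), and no other marker of these lists passed there. PPO1, PPO2, kkv, repo, nrv2, twi and ase stood without any 1 array, while Obp99b, TpnC73F, Rdl and htl did not. The part of these cell types and tissues in the Gst and Ugt differences was not tested. The 6 glue genes of the salivary gland varied widely within groups, with means of 6.40, 11.75 and 7.11 in rbf1 mutant discs, 9.53, 10.08 and 12.24 in PSC discs, and 6.52, 13.10 and 13.03 in control discs. Adding that mean as a covariate left 2 members higher and 4 lower in rbf1 mutant discs, and 1 higher and 9 lower in PSC discs. The calls over all genes changed with it too: 4.65% of all genes rose in rbf1 mutant discs, against 6.31% without the covariate.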

How the data were processed

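The authors' deposited values were log2 intensities, made with RMA per the submitters' processing notes. RMA takes off background, puts arrays on 1 distribution and combines the probes of each set (RMA version: not given in the sources used here). Array medians differed little, so nothing more was normalized. Of 18952 probe sets, 183 were controls, 13647 had 1 gene in the probe annotation, 402 had several and 4720 had none. The last 2 kinds were left out, and the brightest set (mean over 9 arrays) stood for a gene, giving 11983 genes. Symbols came from RefSeq genes (assembly Release 6 plus ISO1 MT), with 11894 gene identifiers matched and 89 not. RefSeq has 70 genes of these families, and GstE8 was not analysed here.

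All 9 arrays entered 1 limma 3.58.1 fit of group means (R 4.3.3), with eBayes at default settings and Benjamini-Hochberg adjustment over all genes, at a threshold of 0.05 and no fold minimum. Exact permutation tests used scipy 1.17.1, and Python 3.11.15 with matplotlib 3.10.9 drew the figures. Members and lists were chosen with earlier results of these data known, and the marker and pathway lists come from textbook knowledge. Genes named are those that passed in a comparison, those with an unadjusted p under 0.05 against control discs, the largest difference of each class, the 3 widest within-group spreads, and members whose probe sets disagree. GstD1, GstD3, GstO2, Ugt35C1, cnc, Keap1, Gclc and the targeted genes are named beyond this rule. The alternatives were other ways to summarise, normalize, filter or fit, 2 covariates and leaving out 1 array. The number of arrays limits the precision. Gene sequences were not analysed here.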

Additional observations from a re-analysis of the deposited data

Results flagged for a closer look

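The effects of the 2 altered genotypes differed for 10 members, by limma's test of rbf1 mutant against PSC discs (adjusted p under 0.05), each value being the rbf1 minus the PSC log2 mean with n = 3 arrays a group. GstE5 differed by 1.22, Ugt305A1 by 0.92, Ugt35A1 by 0.92, Ugt302K1 by 0.81, GstE9 by 0.31, GstE12 by 0.23 and Ugt302C1 by 0.21. GstD9 differed by -0.91, GstD2 by -0.37 and GstZ2 by -0.37. GstE5 moved in opposite directions against control discs in every rbf1 mutant and PSC array. GstD9, GstE5, GstE12, Ugt302K1 and Ugt305A1 passed without any 1 array, and the other 5 did not.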

How the results depend on the processing

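Counts of members called moved with the settings, and so did the share of all genes called. The share of all genes that rose in rbf1 mutant against control discs was 6.31% in the main fit. It was 4.84% without control 3, 5.02% in the fit of 6 arrays, 4.65% with the glue gene covariate and 11.8% among genes above the median level. Leaving out 1 array gave 2 to 3 members higher and 4 to 10 lower in rbf1 mutant against control discs, 1 to 2 higher and 5 to 11 lower in PSC against control discs, and 4 to 7 higher and 2 to 3 lower in rbf1 mutant against PSC discs. Without any 1 array 5 of 12, 5 of 13 and 5 of 10 calls stood. With the glue gene covariate 4 members were lower in rbf1 mutant discs, 1 was higher in PSC discs and 4 were higher in rbf1 mutant than in PSC discs. With the ecdysteroid gene covariate, chosen after values were seen, 1 was higher and 1 lower in rbf1 mutant discs, and 0 and 0 in PSC discs (19 of 69, or 27.5%, at an unadjusted p under 0.05, beside 10.1% of all genes). In a fit of only the 6 arrays compared, 1 was higher and 5 were lower in PSC discs. Among genes above the median level, 4 members were higher in rbf1 mutant than in PSC discs, and with centred arrays 4 were higher and 5 lower.

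Same-numbered arrays had correlations of their deviations between -0.44 and 0.59, and arrays with different numbers between -0.62 and 0.62. Deviations from a mean of 3 arrays depend on each other, so these values cannot settle whether the numbers pair the arrays. A replicate block left 1 member higher in PSC discs. It ended the calls of GstO3, GstT4 and Ugt50B3 in rbf1 mutant discs, of GstT3, GstZ1, Ugt35A1 and Ugt36A1 in PSC discs, and of Ugt302C1 and Ugt35A1 between rbf1 mutant and PSC discs, and it let GstD7 pass in rbf1 mutant and PSC discs against control discs (adjusted p = 0.0358 and 0.0437) and GstD3 between rbf1 mutant and PSC discs. The fit of 6 arrays ended those of GstE12, GstO3, GstT4 and GstZ1 in rbf1 mutant discs, and of GstE1, GstE6, GstT3, GstT4, GstZ1, Ugt35A1 and Ugt36A1 in PSC discs, and of GstD2 and Ugt302C1 between the altered genotypes. Quantile normalization and an intensity trend each ended the rbf1 call of Ugt50B3. Between rbf1 mutant and PSC discs, quantile normalization ended the call of Ugt302C1, the intensity trend that of GstD2, and centring those of GstE9, GstE12 and Ugt302C1. Centring also ended the rbf1 call of GstE12. GstE1 and GstT1, just over the threshold in rbf1 mutant discs, passed under 5 and 3 of these settings. Ugt301D1 passed between rbf1 mutant and PSC discs under 5. Under 2 settings each, Ugt36D1 passed in rbf1 mutant discs, GstE11 in PSC discs, and GstE6 and GstD3 between rbf1 mutant and PSC discs. No called difference changed sign under these settings. Sign changes of differences that did not pass were not counted as reversals. Over 35 named members in 3 comparisons, the 18 alternatives kept the side of the threshold in 1653 values, lost it in 162 and gained it in 39, and the cause of single losses was not tested.

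Class medians are small, and several changed sign. For rbf1 mutant against control discs, the GstD median was 0.0683 among genes above the median level and 0.0219 with the glue gene covariate, and -0.182 to 0.0417 without 1 array. The GstE median was -0.0476 with centred arrays, 0.0462 with quantile normalization, -0.0706 among genes above the median level, -0.0409 with the glue and -0.140 with the ecdysteroid gene covariate, and -0.0503 to 0.0888 without 1 array. The Ugt median was -0.0822 with centred arrays, -0.21 above the median level and -0.0613 to -0.0087 without 1 array. For PSC against control discs, the GstD median was -0.03 with the ecdysteroid gene covariate and -0.144 to -0.0418 without 1 array, and the GstE median was -0.128 above the median level, -0.258 with the ecdysteroid gene covariate and -0.266 to -0.138 without 1 array. For rbf1 mutant against PSC discs, the GstD median was 0.122 above the median level, 0.0614 with the glue gene covariate and -0.0823 to 0.0777 without 1 array. The GstE median was 0.0824 with centred arrays, 0.057 above the median level and 0.0675 to 0.190 without 1 array, and the Ugt median was -0.0536 with centred arrays.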
